A study of Rattus norvegicus with 16 samples.

Results

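CpG-sparse windows of intermediate methylation are 1 kb stretches of the rat genome that hold few measured CpGs and sit neither near 0% nor near 100% methylation. Methylation was read in the amygdala of female Long-Evans rats by reduced representation bisulfite sequencing (RRBS), in which a restriction enzyme enriches fragments rich in CpG and bisulfite turns unmethylated cytosine into a base read as T. The windows were chosen by their coverage, CpG number and level in 10 libraries that form one library set. A site is 1 strand's cytosine of a CpG, and sites entered if they were read at least 10 times in all 10 libraries. A window on chromosomes 1 to 20 needed at least 3 such sites. The number of CpGs in a window, here D, counts the distinct CpGs listed in any of the 10 libraries, and D was at most 16. The level of a window is the percent of its summed reads that were methylated, and the mean level of the 4 high-fat P7 libraries, here L, was at least 40% and under 80%. This rule kept 17473 of 86065 windows, 20.3%.

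The dams ate either control diet or a high-fat diet, starting before pregnancy and lasting until the end of lactation, and their offspring were sampled at postnatal day 7 (P7) or 90 (P90). No offspring ate the high-fat diet directly, and the P90 animals were weaned to control diet. The 10 libraries were control P7 replicates 1 to 4, high-fat P7 replicates 1 to 4 and control P90 replicates 1 and 2. The other 6 libraries, control P90 replicates 3 and 4 and high-fat P90 replicates 1 to 4, form a second set whose levels stood apart at these windows. They entered no test and are described at the end. The labels give no genotype besides the strain and no litter of origin, so a p-value here measures the spread between these libraries, which may share litters. They place the dissection further back along the brain at P90 than at P7, so age and dissected stretch cannot be told apart. The tissue label could not be set against marker genes, because no gene annotation of the files' build (Rnor_6.0, per the submitters' processing notes) was used here, and windows are therefore named by position.

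In mammalian genomes most CpGs outside CpG islands are methylated, and islands at active promoters are mostly not. Intermediate levels are known from enhancers, from the edges of islands, from imprinted regions where the parental alleles differ, and from tissues that mix cell types with different methylomes. The postnatal brain makes and matures glia and neurons, and its methylome is remodelled as it does so. In bulk DNA, a partly methylated window in every cell, a methylated window in some of the cells, and a change in the mix of cell types cannot be told apart.

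Depth was moderate. Reads are counted once per site throughout, so a read that spans several sites counts at each of them, and separate reads can be fewer. Counted so, the 10 libraries held 22087054 to 63677193 reads at listed sites. A window of the set held a median of 151 reads per library, summed over its sites (5th to 95th percentile 70.1 to 347). The windows held 80864 sites, with a median of 4 per window and at most 16, spread over a median of 132 bp. D had a median of 9 in the set and of 11 over all windows. The files list no site without a methylated read, so fully unmethylated sites are missing and levels lean upward. No pair of replicates within a group looked like 1 library deposited in duplicate, with a chi-square per window that averaged 1.80 to 3.88. Pairs across groups were not compared in this way. High-fat P7 replicate 3 stood lowest in level.

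The windows had nearly the same mean level in every library. In control P7 the library means were 67.8%, 63.8%, 65.4% and 66.1%, or 65.8% ± 1.63 (SD, n = 4). In control P90 they were 66.7% and 67.2%, or 66.9% ± 0.348 (SD, n = 2), inside the range of the P7 controls. The high-fat P7 libraries, which chose the windows, had means of 66.8%, 66.3%, 61.3% and 65.0%. Over all 86065 windows the group means were 76.1% ± 0.828 in control P7 (SD, n = 4) and 77.0% ± 0.0825 in control P90 (SD, n = 2). CpG-sparse windows under 40% stood apart from this, with 26.4% ± 1.69 in control P7 (SD, n = 4) against 34.1% ± 0.537 in control P90 (SD, n = 2).

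**Figure D1:**
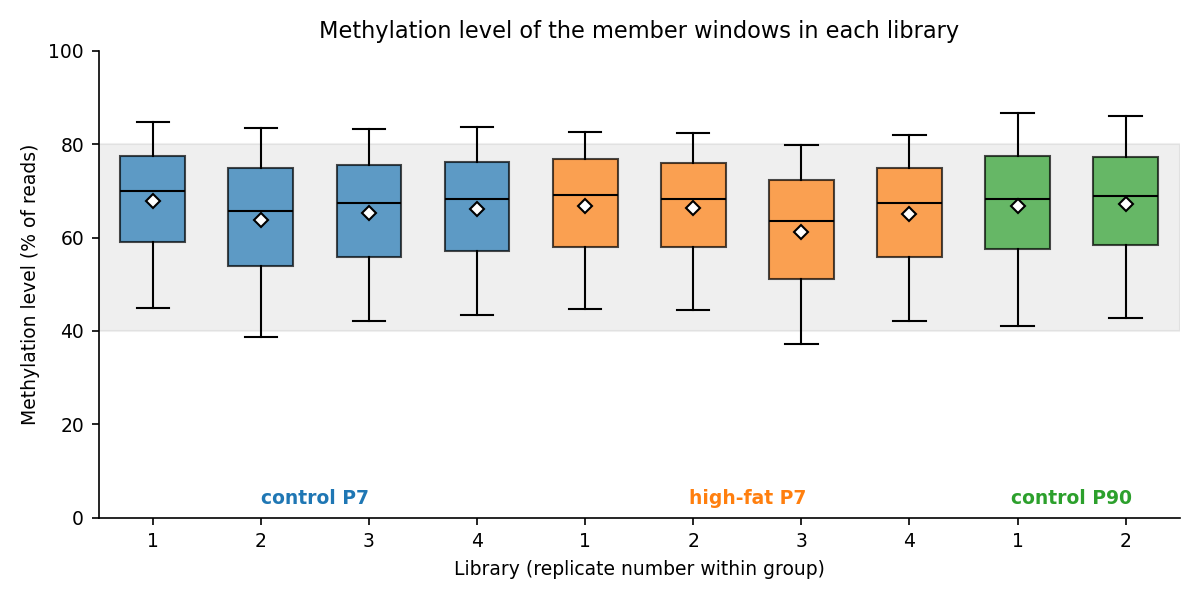
Methylation level (percent of reads) of the 17473 windows in each of the 10 libraries, as boxes from the first to the third quartile with the median as a line, whiskers at the 5th and 95th percentile and the mean as a diamond. The grey band marks the 40% to 80% that the rule asked of the mean of the high-fat P7 libraries. Means lie between 61.3% and 67.8%, with high-fat P7 replicate 3 lowest.

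Levels of single windows spread widely. In the P7 controls the quartiles of level were 56.9%, 68.0% and 75.7%, and the SD between the 4 libraries had a median of 4.95 points per window against 3.00 over all windows. Of the 17473 windows, 88.9% had a control P7 mean from 40% to under 80%, and 79.97% had such a control P90 mean. A window was in that range in all 10 libraries in 7342 cases, 42.0%. Levels from 40% to 60% in all 10 libraries were rarer, with 412 windows or 2.36%, and in 36 of these every site was in that range too. Whether any of them lies in an imprinted region was not tested.

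The limits on L divide windows that are alike. Just under 40%, chr5:160161001-160162000 and chr20:22616001-22617000 had control P7 levels of 39.5% ± 6.58 and 47.1% ± 5.75 (SD, n = 4). Just over it, chr12:47567001-47568000 and chr18:71933001-71934000 had 38.8% ± 5.38 and 37.6% ± 2.35 (SD, n = 4). Near 80%, the windows just inside were chr2:261762001-261763000 at 76.4% ± 7.61 and chr13:20261001-20262000 at 80.6% ± 3.49 (SD, n = 4). Just outside were chr8:46166001-46167000 at 83.0% ± 2.73 and chr2:237981001-237982000 at 79.7% ± 5.32 (SD, n = 4).

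Most sites of the windows were at intermediate level themselves. In the P7 controls 74.7% of the 80864 sites were at 20% to under 80%, 24.0% were at 80% or more and 1.30% were under 20%. All sites were at 20% to under 80% in 39.7% of the windows. Only 490 windows, 2.80%, held both a site under 20% and a site at 80% or more. Still, sites of 1 window differed by a median of 27.2 points from lowest to highest, and by 50 points or more in 14.3% of windows. CpG-dense windows of the same level (D above 16, 5701 windows) had a median range of 42.7 points, but they also held a median of 7 sites over 247 bp, and a range grows with the number of sites.

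Matched on distance, the 2 kinds of window gave like values. In the sparse windows, sites 2 to 10 bp apart on the same strand differed by a median of 7.87 points (10058 pairs). The median rose to 10.8 points at 26 to 50 bp, 16.7 points at 101 to 250 bp and 25.5 points at 251 to 999 bp (3878 pairs). CpG-dense windows gave 7.50, 10.1, 15.9 and 25.1 points at the same distances. Pairs of 1 window share reads and sites, and no test was made over them.

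**Figure D2:**
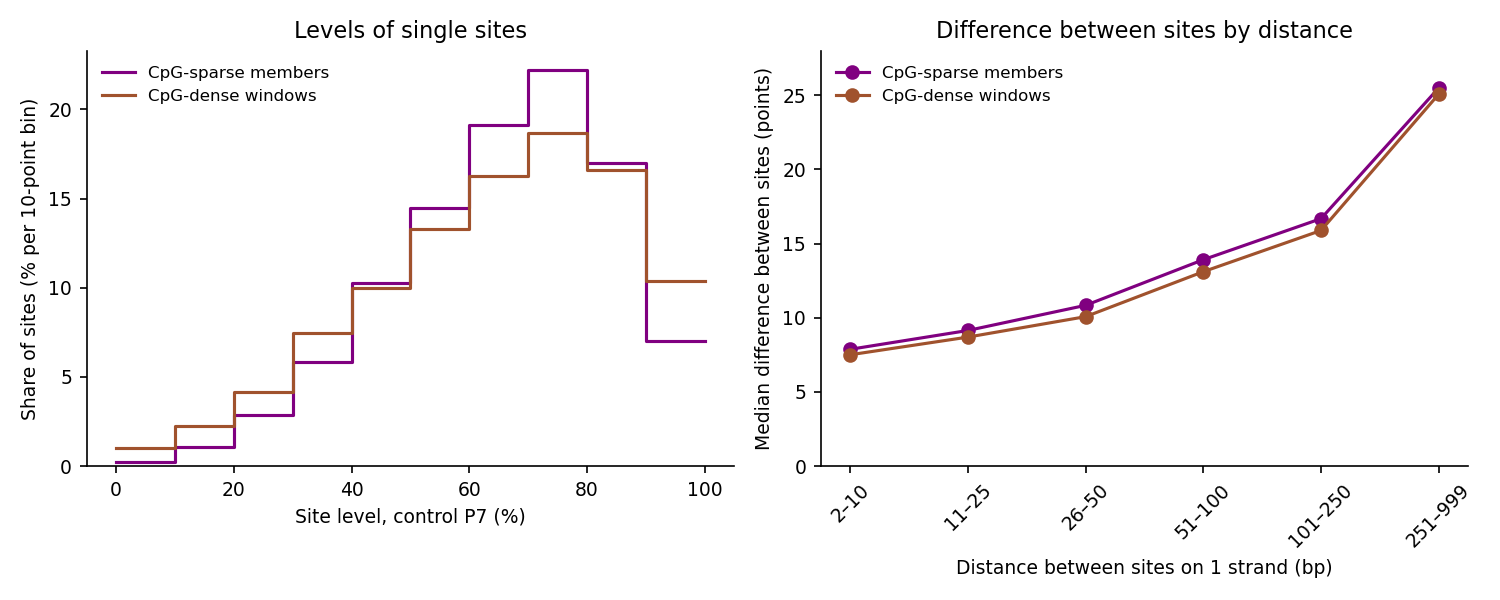
Left, the share of sites (percent per 10-point bin) by their mean level in the P7 controls, and right, the median difference in level between 2 sites of 1 window on 1 strand by their distance in bp, for the CpG-sparse windows and for CpG-dense windows at the same level. Sites of the sparse windows peak between 70% and 80%, and the difference between sites grows from 7.87 points at 2 to 10 bp to 25.5 points at 251 to 999 bp.

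The 2 strands of a CpG carry methylation together in most tissues, because the maintenance methyltransferase copies it after replication. Both strands were read at 10279 CpGs of the sparse windows, and in the P7 controls they differed by a median of 5.79 points. Over 20 points apart were 12.7% of them, against 8.31% in CpG-dense windows of the same level and 1.36% in sparse windows at 80% or more. Sparse and dense windows had much the same reads per site (a median of 151 reads over 4 sites against 265 reads over 7), and counting error is wider at intermediate levels than near 100%. Its part in these shares was not tested.

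The surroundings of the windows were less methylated than those of highly methylated sparse windows. A directly adjacent tested window was found for 3813 of them, 21.8%. Of these 4109 neighbours, 15.4% had an L under 40%, 40.8% were at 40% to under 80% and 43.8% were at 80% or more, where all 86065 windows split into 11.4%, 26.9% and 61.7%. The neighbour was itself a CpG-sparse intermediate window in 29.6% of cases, against a share of 20.3% among all windows. A neighbour with more than 16 CpGs and an L under 40% is how a mostly unmethylated island would appear here. Such windows made up 5.67% of neighbours and 4.45% of all windows. Around sparse windows under 40% that share was 19.7%, and around sparse windows at 80% or more it was 1.74%. Most measured neighbours of intermediate windows were therefore not low, dense windows. Neighbours that RRBS did not reach are not seen. Sites without a methylated read are not listed, and a site had to be listed in every library of the set. Fully unmethylated islands thus drop out even where RRBS reached them, so these shares cannot show how often an island lies beside a window.

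**Figure D3:**
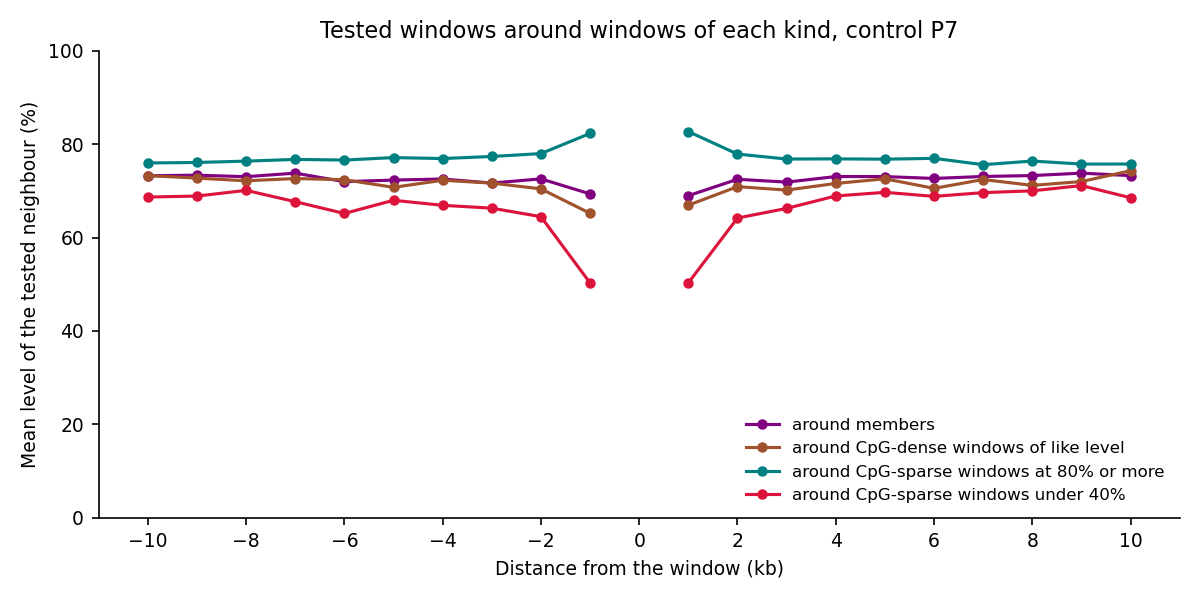
Mean control P7 level (percent) of the tested windows at 1 to 10 kb on either side of a window, by the kind of window at the centre. Neighbours at 1 kb average 69.2% around the sparse intermediate windows, 82.5% around sparse windows at 80% or more and 50.3% around sparse windows under 40%, and the curves come closer with distance.

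Runs were short. Among the 17473 windows, 16277 stood alone, 566 runs held 2 adjacent windows, 20 held 3 and 1 held 4. Per chromosome, 17.0% (chromosome 15) to 22.0% (chromosome 3) of the tested windows belonged to the set.

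Individual windows differed between the ages in both directions, while the mean over the set lay within the range of the P7 controls. In the controls 1846 windows (10.6%) were higher and 1305 (7.47%) were lower at P90 than at P7, at a Benjamini-Hochberg adjusted p under 0.05 over all 86065 windows. Over all windows 7.67% were called higher and 5.25% lower. The high-fat P7 libraries that chose the windows by level did not enter this comparison. Sites had to be listed in both P90 libraries too, so a site left without methylated reads at P90 is not seen. The test fitted the methylated and unmethylated reads of each window in a quasi-binomial model and moderated its dispersion with limma, and at 4 degrees of freedom of its own per window against a median of 35.2 shared ones the p-values rest mostly on a spread shared by windows. Without that moderation no window was called at all (smallest adjusted p 0.172 in the set). An unadjusted p under 0.05 was then found in 21.7% of the windows of the set and in 14.9% of all windows. The counts also rest on both P90 libraries, since they fell in the set and over all windows when either one was left out. The median change of the set was 1.57 points without control P90 replicate 1 and 1.20 points without replicate 2.

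The median change over the 17473 windows was 1.29 points upward, against 0.518 points over all windows, and the quartiles of the change were −4.76 and 7.23 points. Without control P7 replicate 2 the median change was 0.701 points, and the median level of the set had an SD of 1.71 points between the P7 controls (n = 4), wider than the change itself. Without the test, both P90 libraries lay above all 4 control P7 libraries in 4020 windows (23.0%, against 18.2% over all windows) and below all of them in 2624 (15.0%, against 12.4%). The shares rose with depth: in the third of windows with the fewest reads 6.89% were called higher and 5.52% lower, and in the third with the most reads 14.8% and 9.63%. The profile across windows separated the ages as well. Any 2 P7 libraries, whatever the diet, correlated across the windows at r = 0.751 to 0.840, the 2 P90 libraries at 0.852, and a P7 with a P90 library at 0.581 to 0.654 (windows are not replicates, and the range of L limits these values).

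Many called windows lay outside the intermediate range at P90. The rule set that range at P7 and a call needs a change, so this is partly given by the choice. Over the whole set, 88.9% of windows were in the range by control P7 mean and 79.97% by control P90 mean. Windows called higher had a median level of 58.4% in control P7 and 77.1% in control P90, where 40.1% of them were at 80% or more. Those called lower had medians of 71.8% and 53.3%, and 19.7% of them ended under 40%. The median change was 16.4 points upward in the first and 16.6 points downward in the second. Sites moved together, since 96.1% of the 9484 sites in windows called higher rose in mean and 96.5% of the 6637 sites in windows called lower fell in mean. A call rests on the summed reads of those sites, so this share describes the called windows and does not test them.

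Calls upward were concentrated in the lower part of the range. At an L of 40% to under 60% (5730 windows) 17.6% were called higher and 4.90% lower, with a median change of 4.11 points upward. At an L of 60% to under 80% (11743 windows) 7.14% were called higher and 8.72% lower, with a median change of 0.197 points. In steps of 5 points, the share called higher fell from 23.3% at 40% to 45% to 5.03% at 75% to 80%, while the share called lower rose from 4.28% to 9.52%. CpG-dense windows followed nearly the same course, with 17.3% higher and 4.94% lower in the lower range and 8.22% and 9.64% in the upper one. L comes from other libraries than the change, so the noise of those libraries does not enter it. They are P7 libraries, however, so the windows were chosen by level at P7 and not at P90. The part of that choice in the course over L was not tested, and neither was the course as such.

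**Figure D4:**
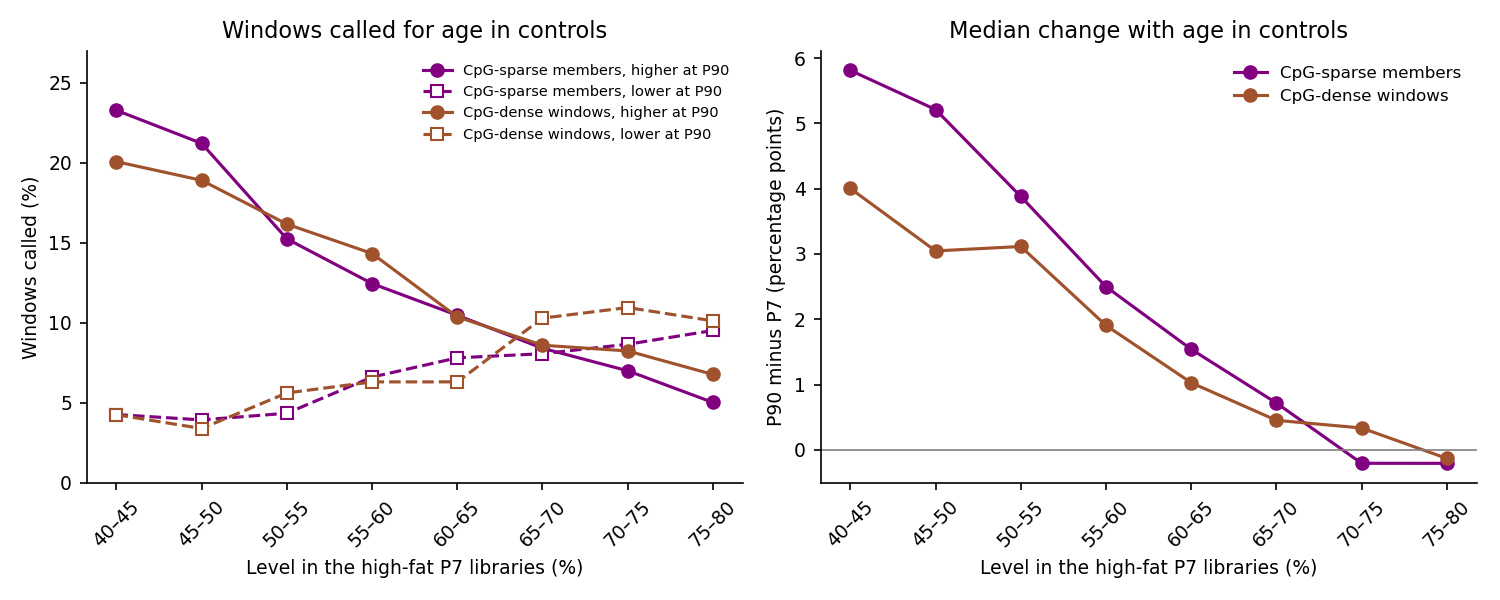
Left, the percent of windows called higher (filled) or lower (open) at P90 than at P7 in controls, and right, the median change in points, both by the level of the window in the high-fat P7 libraries in steps of 5 points, for CpG-sparse and CpG-dense windows. In sparse windows the share called higher falls from 23.3% to 5.03% along the axis, the share called lower rises from 4.28% to 9.52%, and the median change falls from 5.81 points to −0.205 points.

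Shares called also differed between even and uneven windows, as a description with no test of the difference. Where the sites of a window lay within 20 points of each other in the high-fat P7 libraries (5439 windows), 7.61% were called higher and 10.7% lower. Where they lay 50 points or more apart (2562 windows), 15.2% were called higher and 3.20% lower. At an L of 60% to under 80% the same held, with 5.74% higher and 12.2% lower among even windows against 10.7% and 3.45% among uneven ones. At an L of 40% to under 60% even windows gave 13.7% and 5.96%, and uneven ones 19.1% and 2.98%. Uneven windows also had more reads, a median of 187 per library against 134. The number of sites, with which a range grows, was not held constant, and its part and that of depth were not tested.

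In the uneven windows the low site moved more than the high one. The site that was lowest in the high-fat P7 libraries went from a median of 28.4% in control P7 to 36.5% in control P90, with a median change of 7.14 points, and it rose in 71.8% of windows. The highest site went from 90.4% to 92.0%, with a median change of 0.477 points. Both sites were picked as extremes in the high-fat P7 libraries, where their medians were 26.2% and 91.7%. A site near 90% has little room to rise, and a low site left without methylated reads at P90 is not seen. The part of these limits in the difference was not tested. Over all sites of the set the median change was 7.55 points upward for sites at 20% to 40% in the high-fat P7 libraries (7380 sites), 3.53 points for sites at 40% to 60%, −0.166 points at 60% to 80% and −0.106 points at 80% or more. By number of CpGs the shares differed less: with 2 to 4 CpGs 9.20% of windows were called higher and 6.14% lower, and with 13 to 16 CpGs 11.6% and 8.56%.

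The 8 windows with the smallest p among those called higher started at 38.0% to 57.1% and ended at 69.3% to 87.4%. These windows and those named below as lower were picked by p on these same values, so their changes are large by choice. At chr8:59332001-59333000, 9 sites over 188 bp, the 4 P7 controls had 33.2%, 37.7%, 39.1% and 41.9%, and the 2 P90 controls had 75.9% and 72.9%. The groups did not overlap, and the high-fat P7 libraries, at 37.9% to 45.3%, lay with the P7 controls. The change was 36.4 points (adjusted p = 1.15e-08, limma-moderated test). At 8 of its 9 sites the change was 26.7 to 51.3 points, and the exception was the plus-strand cytosine at 59332341, which was already at 95.4% ± 3.70 at P7 (SD, n = 4). Its partner on the minus strand, at 59332342, had 38.5% ± 6.48 at P7 (SD, n = 4) and 70.6% and 80.6% at P90, so the 2 strands of this CpG stood far apart at P7.

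At chr14:43700001-43701000, 9 sites within 80 bp, the P7 controls had 48.8%, 38.7%, 48.6% and 43.0% and the P90 controls 78.8% and 77.3%. Every site rose, by 20.4 to 50.0 points. The change of the window was 33.3 points (adjusted p = 1.31e-08, limma-moderated test). At chr19:16803001-16804000, 4 minus-strand sites within 20 bp, the P7 controls had 50.7%, 53.6%, 54.0% and 49.4% and the P90 controls 86.7% and 88.0%. All 4 of these sites lie on reads of 1 strand, so they are close to a single measurement. The high-fat P7 libraries were wider there, at 48.3% to 65.7%, and still below both P90 values.

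The next windows behaved alike. At chr2:23870001-23871000, 11 sites over 210 bp, the P7 controls had 42.6%, 37.1%, 39.9% and 41.6% and the P90 controls 68.3% and 70.3%, a change of 28.9 points. Its reads summed over sites were the most of the 8 (404 to 990 per library). Its sites spanned 11.2% to 81.6% at P7, and all of them rose, from the least to the most methylated. At chr19:40786001-40787000 the P7 controls had 58.7%, 56.7%, 56.2% and 56.9% and the P90 controls 82.0% and 89.4%. In that window the plus- and minus-strand cytosines of the CpG at 40786500 had 68.3% and 37.1% at P7 and averaged 21.4 and 45.4 points more at P90. The other 3, chr5:76595001-76596000, chr10:107395001-107396000 and chr4:57978001-57979000, rose by 29.5, 28.9 and 32.3 points (largest adjusted p of the 3, 1.29e-07, limma-moderated test), and no P90 value overlapped with the P7 controls.

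The 8 windows with the smallest p among those called lower started at 46.0% to 82.2% and ended at 11.1% to 51.3%. The widest change was at chr1:240911001-240912000, 4 sites over 221 bp, where the P7 controls had 78.0%, 68.6%, 69.6% and 67.0% and the P90 controls 22.8% and 17.1%. Each of its sites fell, by 44.1 to 58.1 points. The window's change was −50.9 points (adjusted p = 1.6e-10, limma-moderated test), the widest downward change among the windows called. It lists 5 CpGs, fewer than the median of 9 in the set.

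At chr8:115071001-115072000, 9 sites over 228 bp, the P7 controls had 64.1%, 52.0%, 53.1% and 65.2% and the P90 controls 17.7% and 23.5%. The high-fat P7 libraries had 58.8% to 64.4%. At chr19:53663001-53664000, 6 sites within 78 bp, the P7 controls had 73.5%, 65.4%, 72.0% and 75.8% and the P90 controls 36.2% and 29.1%. Its changes were −23.2 to −45.3 points by site. High-fat P7 replicate 4 was lowest of the P7 libraries there, at 55.6%, and still above both P90 values. At chr1:167093001-167094000 the P7 controls had 45.3%, 46.8%, 52.7% and 39.3% and the P90 controls 10.8% and 11.4%, so this window went from near the middle to nearly empty.

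A further group of windows called lower started high and stopped near the middle. At chr12:25470001-25471000 the P7 controls had 91.0%, 81.5%, 78.4% and 78.0% and the P90 controls 48.1% and 46.1%. At chr7:130520001-130521000 the P7 controls had 84.3%, 79.7%, 81.9% and 81.5% and the P90 controls 53.3% and 49.4%. At chr1:80462001-80463000, 3 sites, they had 85.2%, 76.6%, 80.1% and 79.0% against 49.0% and 39.6%. No P7 library of either diet overlapped with a P90 library in these windows.

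In chr7:70901001-70902000 the mean change was −25.2 to −54.1 points at 6 sites and 1.21 points at the other. The P7 controls had 82.4%, 86.5%, 75.2% and 77.8% and the P90 controls 48.9% and 48.6%, a change of −31.8 points (adjusted p = 1.05e-07, limma-moderated test). Its minus-strand site at 70901043, with 13 to 52 reads per library, had 89.2% ± 8.65 at P7 (SD, n = 4) and 80.8% and 100% at P90. The 6 sites from 70901634 to 70901870 changed by −25.2 to −54.1 points. The difference between this single site and the others was not tested.

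**Figure D5:**
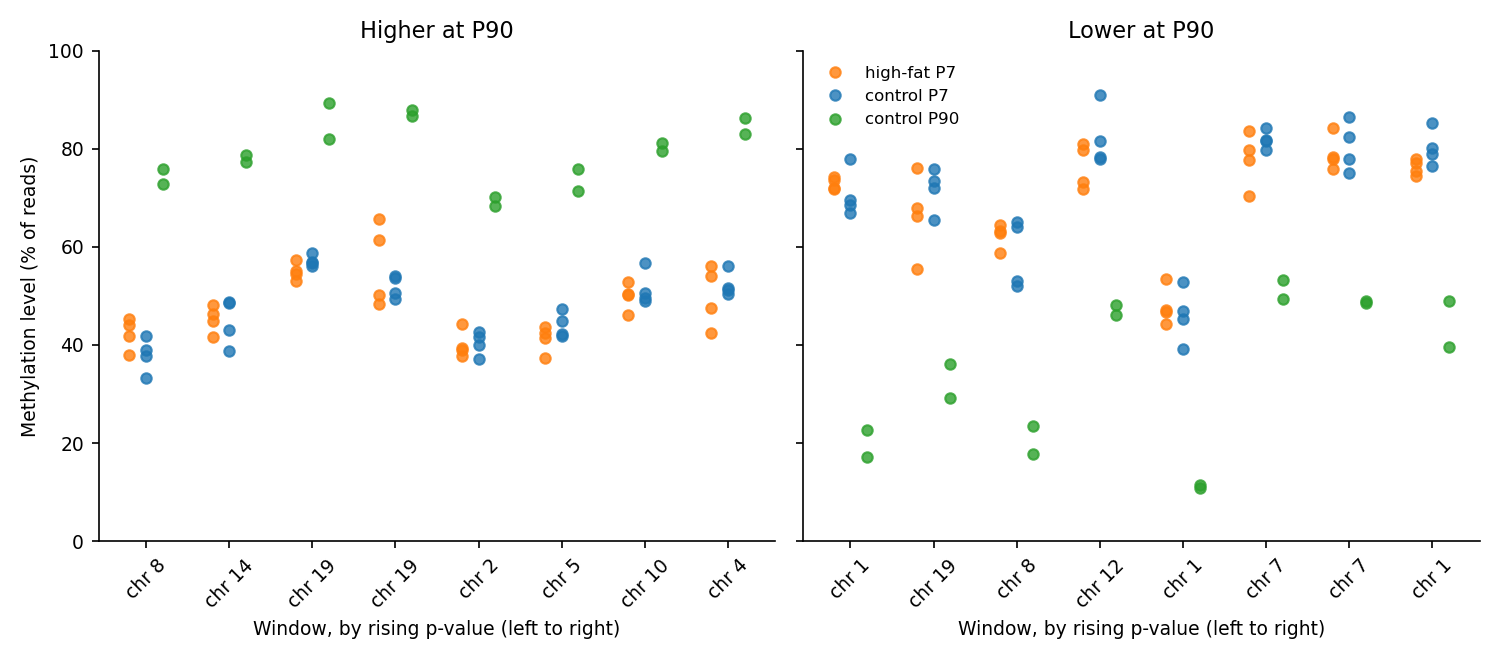
Methylation level (percent of reads) in each library for the 8 windows with the smallest p among those called higher (left) and lower (right) at P90 than at P7 in controls, 1 point per library, labelled by chromosome and ordered by rising p. In each window both control P90 points lie outside all 8 P7 points, and the high-fat P7 points lie among or beside the control P7 points.

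The 5 windows with the most reads changed little. Their depth lay far above that of the set (95th percentile 347 reads per library), and where it comes from was not tested. At chr13:89445001-89446000, with 2086 to 5241 reads per library summed over its sites, the P7 controls had 77.5%, 77.4%, 79.2% and 79.3% and the P90 controls 77.6% and 74.8%. At chr6:70061001-70062000 the P7 controls had 65.2%, 64.1%, 65.9% and 66.6% and the P90 controls 66.0% and 66.1%. No site of that window was near this summed level: its 4 sites had control P7 means of 95.7%, 5.07%, 83.7% and 87.4%. Mixes of low and high sites were also found at chr2:215006001-215007000, with 91.7%, 12.02% and 69.8%, and at chr2:257884001-257885000, with 91.9%, 70.8% and 12.5%. In these 3 of the 5 most-read windows the intermediate level is thus a sum over unlike sites. As windows, chr2:215006001-215007000, chr19:27670001-27671000 and chr2:257884001-257885000 changed by −1.57, 1.49 and −1.85 points. None of the 5 was called (smallest adjusted p 0.555, limma-moderated test), and their SD in control P7 ran from 0.761 to 3.30 points (n = 4).

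The single run of 4 windows changed in part. At chr9:66132001-66133000 the P7 controls had 42.9%, 30.0%, 48.6% and 46.4% and the P90 controls 78.0% and 63.6% (adjusted p = 0.000314, limma-moderated test). The window next to it, chr9:66133001-66134000, had 50.0%, 49.3%, 50.4% and 51.7% at P7 and 70.8% and 70.5% at P90 (adjusted p = 0.00248, limma-moderated test). Measured sites of both lie between 66132980 and 66133048, so the window border cuts 1 changed stretch into 2 counts. The other 2 windows of the run started higher, at 78.0% ± 5.57 and 79.0% ± 4.34 (SD, n = 4), and their changes of 5.95 and 5.50 points were not called (adjusted p = 0.465 and 0.311, limma-moderated test).

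Of the 20 runs of 3 windows, the 2 with the most reads were taken after the runs had been seen to tie. In chr3:11928001-11931000 the first window had 64.8%, 57.3%, 58.4% and 67.5% in the P7 controls and 47.5% and 46.4% in the P90 controls and was called lower (adjusted p = 0.00422, limma-moderated test). The other 2 windows of that run changed by −3.25 and −4.66 points and were not called. In chr20:4624001-4627000 the 3 windows changed by 5.43, −3.90 and −0.0196 points, and none was called. Over all 609 pairs of adjacent windows of the set, 44 were called on both sides, of which 29 were both higher, 11 both lower and 4 opposite, while 148 had a call on 1 side and 417 had none. Per chromosome the share called higher ran from 7.73% (chromosome 20) to 14.6% (chromosome 18).

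No window of the set passed the test for maternal diet at P7. The high-fat libraries chose the windows, so the values that follow are a description and nothing is read from them. None of the 17473 windows was called higher or lower in the high-fat libraries (smallest adjusted p 0.183, limma-moderated test), and over all 86065 windows 0.00232% were called higher and 0.00697% lower. An unadjusted p under 0.05 was found in 668 windows of the set, 3.82%, and in 4.68% of all windows. With edgeR 1 window of the set was called and with limma on log2 ratios none, and the unadjusted counts were 612 and 762. The median difference was −0.965 points, against −0.299 points over all windows. It depended on high-fat P7 replicate 3, without which it was 0.173 points, and on control P7 replicate 1, without which it was −0.352 points.

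The windows with the smallest p for diet were picked on these same values, so their differences are large by choice and are given as a description. At chr14:70218001-70219000 the control P7 libraries had 93.5%, 87.1%, 83.3% and 90.2% and the high-fat P7 libraries 68.8%, 64.4%, 61.3% and 88.9%. High-fat replicate 4 lay among the controls, and the other 3 lay below all of them. The same window was called lower at P90 in the controls, with 69.5% and 67.1% (adjusted p = 2.79e-05, limma-moderated test). Both differences sat in 1 CpG, read on both strands at 70218429 and 70218430. The labels give no genotype of the animals, and whether they differ in sequence at this CpG was not tested. Its 2 sites had 82.5% and 88.7% in control P7, 46.1% and 52.0% in high-fat P7, and changes of −39.2 and −44.0 points from control P7 to control P90. The other 2 sites, at 70218382 and 70218453, had 89.6% and 92.1% in control P7, 86.5% and 95.2% in high-fat P7, and changes of −5.56 and 3.75 points. At chr20:46505001-46506000 the controls had 77.6%, 81.9%, 84.1% and 69.6% and the high-fat libraries 66.1%, 65.6%, 63.8% and 54.0%, without overlap. In the other direction, at chr17:77490001-77491000, the controls had 55.7%, 63.4%, 54.0% and 59.8% and the high-fat libraries 77.2%, 73.2%, 70.5% and 72.4%. At chr2:60675001-60676000 they had 61.5%, 58.9%, 73.1% and 58.8% against 77.8%, 78.3%, 74.8% and 71.7%, and control replicate 3 overlapped with the high-fat values. None of these 4 passed the adjusted threshold for diet (adjusted p from 0.183 to 0.654, limma-moderated test).

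The second library set did not show these windows as intermediate. With at least 3 of the same sites read at least 10 times, its 6 libraries covered 677 to 4135 of the 17473 windows, 3.87% to 23.7%. There their mean levels were 82.0% to 90.2%, where the libraries of the first set had means of 61.7% to 69.9% at the same sites. Levels of 95% or more were found in 41.1% to 73.6% of the covered windows, against at most 1.05% in a library of the first set. Control P90 libraries fell on both sides, with 66.7% and 67.2% in replicates 1 and 2 over all windows of the set and 82.0% and 87.0% in replicates 3 and 4 over the windows they covered. The sets differ in title and depth, all high-fat P90 libraries are in the second, and the few windows they covered were not compared by diet here.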

How the data were processed

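RRBS libraries (NuGEN Ovation kit) were prepared from amygdala DNA of 4 groups of 4 animals, per the labels. The authors deposited 1 table per library, with the counts of methylated and of unmethylated reads at single cytosines of CpGs and no normalization. Positions refer to Rnor_6.0, according to the submitters' processing notes. The caller is not given in the sources used here. One column of unstated meaning stayed unused.

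Counts were summed over the sites of each window. For age (control P90 replicates 1 and 2 against control P7 replicates 1 to 4) and for diet at P7 (4 against 4 libraries), a quasi-binomial model was fitted to all 86065 windows with an F test of the deviance, two-sided. The Pearson dispersion was moderated by limma 3.58.1 (squeezeVar, robust) with a trend in coverage and level, and was never below 1. P-values were adjusted by Benjamini-Hochberg over all windows at 0.05. Alternatives were edgeR 4.0.16, Fisher's exact test on group sums, limma on log2 ratios (1 added to each count), other limits on reads, sites, D and L, merged strands and leaving out each library. R 4.3.3 and Python 3.11.15 were used. The fit was also run on simulated counts, with the same spread in all windows and changes only at middle levels. That run therefore does not vouch for the calls in these data.

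The windows and the rules for naming them were chosen with earlier results of these data known. Windows named were, in the set, for age the 8 of smallest p per direction, the 5 with the most reads, the 3 longest runs, for diet the 2 of smallest p per direction, and the 2 on each side of each limit on L. Without a genome or annotation of the build, no gene and no sequence is given. Reads without molecular identifiers are not independent molecules, so dispersion rather than counting error set the p-values. Same-numbered control titles at P7 and P90 (2 pairs) were not said to be paired, and the main test did not pair them. Their deviations from the group means correlated at −0.0161 and −0.0508. The deviations of 2 P90 libraries from their own mean are mirror images, so these values cannot show whether the titles are paired.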

Additional observations from a re-analysis of the deposited data

Results flagged for a closer look

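At chr2:257884001-257885000, one of the 5 windows with the most reads, high-fat P7 replicate 1 had a level of 61.0% (60.996%), apart from the other 3 high-fat P7 libraries at 57.6% to 58.2%. The gap was 0.833 of the group's whole range, just over Dixon's 95% limit for 4 samples. Of 88 such groups of 4 examined this was the 1 that passed, where chance gives about 1 in 20.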

How the results depend on the processing

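Counts of windows of the set called higher and lower with age, 1846 and 1305 as reported, were 966 and 623 at 20 reads or more per site (7300 windows left), 892 and 631 with at least 5 sites (6900 windows left), 1161 and 599 with limma on log2 ratios, 1336 and 659 with those ratios centred (an alternative chosen after seeing the data), 3820 and 2766 with Fisher's exact test, which ignores the spread between libraries, and 0 and 0 without moderation. With an L of 45% to under 75% they were 1336 and 842 (11916 windows). With the number that opens the title as a replicate block they were 862 and 606; the numbers are not said to pair animals. Leaving out 1 library gave 959 to 1886 higher and 704 to 1343 lower, the fewest without a P90 library. Over all windows, 6597 and 4521 as reported (7.67% and 5.25%), the counts were 4093 and 2759 with at least 5 sites (42598 windows left, 9.61% and 6.48% of them). They were 3945 and 1887 with limma, 12838 and 9320 with Fisher's exact test, 0 and 0 without moderation and 3604 and 2470 with the block. Lower calls were 2383 at 20 reads or more (42672 windows left, 5.58% of them) and 2004 with centred ratios. The counts with 1 library left out were 3694 to 6565 higher and 2761 to 4441 lower. Other alternatives stayed within 1.5 times. The share of calls that were higher ran from 53.2% (without control P90 replicate 2) to 67.0% (centred ratios), and the median change from 0.701 to 1.86 points. Diet calls in the set were 1 with edgeR, 1 without the robust step and 459 with Fisher's exact test, and 0 to 1 with 1 library left out. All 16 windows named for age kept their direction in every alternative that tested them, and lost their call only without moderation. They were picked for the smallest p in these same libraries, so this describes them and does not test them. The causes of the differences between alternatives were not tested. The third of windows with the fewest reads had fewer calls, and the part of depth in this was not tested.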
